A study of Mus musculus with 45 samples.

Results

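Fatty acid oxidation and ketogenesis genes were followed across the liver, kidney and brain of mice on a high-cholesterol diet (HCD). The group holds 33 named genes, and all 33 were found by symbol among the 22080 genes of the deposited expression table, each with 1 probe set. They cover the route of a fatty acid from the cell surface to ketone bodies. Cd36 and Acsl1 take up and activate fatty acids. Cpt1a, Cpt1b, Cpt2, Slc25a20 and Crat form the carnitine shuttle. Another 11 genes encode peroxisomal proteins (Abcd2, Abcd3, Pex11a, Ehhadh, Hsd17b4, Acaa1a, Acaa1b, Crot, Decr2, Eci2 and Ech1), and 10 encode mitochondrial oxidation enzymes (Acadvl, Acadl, Acadm, Acads, Hadha, Hadhb, Hadh, Acaa2, Decr1 and Eci1). Etfa, Etfb and Etfdh pass the electrons on to the respiratory chain, Bdh1 interconverts the ketone bodies, and Vnn1, a pantetheinase, is a known target of the nuclear receptor PPAR alpha.

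The mice were male C57BL/6 animals, 7 weeks old according to the labels, with 8 in each of 5 diet groups, and tissue was taken on day 43 after 8 h without food. The Control group ate the AIN-93 diet, and the HCD group the same diet with 0.5% cholesterol. The 2 extract groups, HCD+Gl-1 and HCD+Gl-2, ate the HCD with 1% of a lyophilized extract of the mushroom Ganoderma lucidum, grown without acetylsalicylic acid (Gl-1) or with 10 mM of it in the substrate (Gl-2). The HCD+Sim group ate the HCD with 0.03% simvastatin by weight, an inhibitor of cholesterol synthesis. Each tissue and diet had 3 Affymetrix arrays of the type Mouse Gene ST v1.0, 45 in all. The study's methods describe pool A as RNA of 4 mice, pool B as RNA of the remaining 4 and pool C as a mixture of both. By that description a group has 2 independent pools behind its 3 arrays. The tests below count all 3 arrays as replicates and share 1 spread per gene over all 45 arrays. Their p-values therefore do not measure the spread between independent pools of the compared groups. Values are log2 expression, so a difference of 1 is a doubling of signal.

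Array medians lay between 6.76 and 6.92, and 2 arrays of a group correlated at 0.985 to 0.997 over all genes. The mean of 8 liver markers was 13.04 to 13.20 in liver arrays, 9.53 to 9.73 in kidney and 6.51 to 7.21 in brain, and the 8 kidney and 8 brain markers were likewise highest in the tissue of their name, although the free-text descriptions of the liver and kidney samples say brain. Pools A and B of the liver HCD+Sim group stood apart, with a mean of 8 exocrine pancreas markers of 7.40 and 8.00 against 5.92 to 6.15 on the other 13 liver arrays, and a mean of 12 skeletal muscle markers of 7.42 and 7.78 against 6.30 to 7.07. Pool C of this group, by the methods a mixture of pools A and B, had means of 6.15 and 6.59, below both of them. Simvastatin calls in liver are therefore also given on pool C alone, with that lone array assumed to vary like the other groups.

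In the cell, a long-chain fatty acid is joined to coenzyme A at a membrane and is then moved into mitochondria on carnitine, with CPT1 as the gate that malonyl-CoA inhibits. Mitochondrial enzymes shorten it in a repeating spiral, and the liver turns much of the acetyl-CoA into ketone bodies during fasting. Peroxisomes shorten very long and branched chains first and hand the products on as carnitine esters. Many of these genes are activated in liver and kidney by PPAR alpha, which binds, with RXR, to a direct repeat of the half-site AGGTCA separated by a single base.

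The promoters of these genes were read from RefSeq (GRCm38.p6), which held an entry for 26 of the 33 genes. Cpt1b, Crat, Abcd2, Hsd17b4, Acaa2, Decr1 and Vnn1 had no entry. The direct repeat, AGGTCA with 1 free base before a further AGGTCA, was searched on both strands in the 250 bases before each start, allowing 2 of its 12 fixed letters to differ. Only Cd36 and Etfa held a match, 2 of 26 genes (7.69%), while 3.24% of all 32851 promoters held one. Both matches lay on the strand opposite to the gene and differed at 2 letters. The 2 genes are shown because they hold such a match, and neither holds the exact repeat. Each is given with the 50 bases before the match and the bases from there to the start, 5′ to 3′ on the gene's strand, and the match in capitals. The Cd36 stretch is chr5:17835897-17836009 on the minus strand, and its match begins 63 bases before the start.
Cd36: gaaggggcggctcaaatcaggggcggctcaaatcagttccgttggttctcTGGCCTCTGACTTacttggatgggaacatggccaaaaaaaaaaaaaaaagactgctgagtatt
The Etfa stretch is chr9:55512244-55512370 on the minus strand, and its match begins 77 bases before the start.
Etfa: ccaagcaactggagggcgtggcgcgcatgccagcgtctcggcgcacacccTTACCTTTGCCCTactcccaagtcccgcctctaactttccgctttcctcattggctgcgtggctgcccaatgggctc
A match describes these letters only, and a missing match says only that the letters are not in this window.

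Hadha and Hadhb, which encode the alpha and beta subunits of the mitochondrial trifunctional protein, are neighbours that face away from each other, so a single stretch of 272 bases between their annotated starts precedes both. It is shown because their values can be compared as a pair from a shared upstream region. It is chr5:30154981-30155252, written on the plus strand, with Hadhb to its right and Hadha, on the minus strand, to its left.
Hadha and Hadhb: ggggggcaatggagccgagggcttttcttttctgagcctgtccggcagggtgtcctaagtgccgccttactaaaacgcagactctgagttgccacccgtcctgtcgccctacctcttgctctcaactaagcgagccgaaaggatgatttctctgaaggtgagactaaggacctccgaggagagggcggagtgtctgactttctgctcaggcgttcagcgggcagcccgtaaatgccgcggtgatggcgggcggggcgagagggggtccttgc
In liver, HCD+Gl-1 against HCD gave a log2 difference of 0.33 ± 0.11 (SE, adjusted p = 0.103) for Hadhb and 0.11 ± 0.09 (SE, adjusted p = 0.572) for Hadha. In kidney the same comparison gave 0.21 ± 0.11 (SE) for Hadhb and 0.23 ± 0.09 (SE) for Hadha. Neither gene passed the test in any diet comparison of liver or kidney with all arrays, and Hadhb passed at 0.50 for liver HCD+Gl-1 against HCD without pool B of HCD+Gl-1.

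Acaa1a and Acaa1b encode 2 closely related peroxisomal thiolases, whose probe sets may share signal because the transcripts are so alike. They lie on the same chromosome, and the 200 bases before each start are shown so that a reader can compare the upstream letters of 2 such alike genes, of which Acaa1b passed the test in kidney and Acaa1a did not. The Acaa1a stretch is chr9:119341094-119341293 on the plus strand, and the Acaa1b stretch is chr9:119157094-119157293 on the minus strand, each written on the strand of its gene.
Acaa1a: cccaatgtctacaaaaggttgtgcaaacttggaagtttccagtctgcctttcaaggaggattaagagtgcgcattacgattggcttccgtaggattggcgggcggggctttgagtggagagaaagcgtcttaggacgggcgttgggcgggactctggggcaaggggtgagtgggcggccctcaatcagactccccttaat
Acaa1b: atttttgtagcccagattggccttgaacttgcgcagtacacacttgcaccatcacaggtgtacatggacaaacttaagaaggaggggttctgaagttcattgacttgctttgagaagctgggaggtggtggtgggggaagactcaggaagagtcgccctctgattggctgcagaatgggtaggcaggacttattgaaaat
A global alignment of these stretches had 107 identical positions among 215 columns (49.8%), and neither stretch held a match to the direct repeat.

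On the Control diet, the oxidation genes were far higher in liver and kidney than in brain. Groups were compared with limma in a single fit over all 45 arrays, with p-values adjusted over the 22080 genes, and a gene was called differentially expressed (DE) at an absolute log2 difference over 0.7 with an adjusted p of at most 0.05, the thresholds of the study. Against brain, 30 of the 33 genes were DE higher in liver and 1 was DE lower, where 15.5% of all genes were DE higher and 17.2% DE lower. In kidney 31 were DE higher than in brain and 1 DE lower, against 15.7% and 14.2% of all genes. The median difference over the 33 genes was 2.77 for liver and 2.62 for kidney on the log2 scale, beside 0.14 and 0.08 over all genes. Acaa1b and Ehhadh, both of the peroxisome, stood out in liver with log2 differences of 5.03 ± 0.11 (SE, adjusted p = 3.67e-32) and 4.78 ± 0.12 (SE, adjusted p = 3.55e-31). In kidney Cd36 stood out, with 6.67 ± 0.10 (SE, adjusted p = 3.29e-37).

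Abcd2, an importer of very long-chain fatty acids into peroxisomes, ran the other way. It read 8.60, 8.65 and 8.31 on the Control arrays of brain (pools A, B and C), 7.05, 7.47 and 6.41 in liver and 5.19, 5.08 and 4.96 in kidney. The brain arrays lay above all liver arrays and the liver arrays above all kidney arrays. Liver was lower than brain by a log2 difference of -1.55 ± 0.17 (SE, adjusted p = 1.23e-10), and kidney by -3.45 ± 0.17 (SE, adjusted p = 5.75e-21).

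Liver and kidney differed gene by gene. Of the 33 genes, 10 were DE higher in liver than in kidney and 6 were DE lower, where 6.78% of all genes were DE higher and 10.1% DE lower. Peroxisomal genes leaned to liver, with 6 of 11 DE higher and only Ehhadh DE lower. Of the electron transfer genes 0 of 3 were DE, with differences of 0.05 to 0.42. Among the carnitine palmitoyltransferases, Cpt1a, the liver isoform, had a difference of 0.17 ± 0.07 (SE, adjusted p = 0.0605), while Cpt1b, the muscle isoform, was DE lower in liver at -1.68 ± 0.09 (SE, adjusted p = 1.44e-19). Cd36, the membrane fatty acid translocase, was lower in liver by -3.02 ± 0.10 (SE, adjusted p = 1.25e-25), and Acadm, the medium-chain acyl-CoA dehydrogenase, by -1.10 ± 0.10 (SE, adjusted p = 1.18e-12). Acaa2, a mitochondrial thiolase, was higher in liver at 1.69 ± 0.07 (SE, adjusted p = 3.39e-23), and so was Acsl1, a long-chain acyl-CoA synthetase, at 1.59 ± 0.10 (SE, adjusted p = 7.6e-17). Bdh1, the mitochondrial hydroxybutyrate dehydrogenase, was also higher in liver, at 0.79 ± 0.07 (SE, adjusted p = 4.76e-12). Of the genes named here, Cpt1a did not pass the test.

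**Figure D1:**
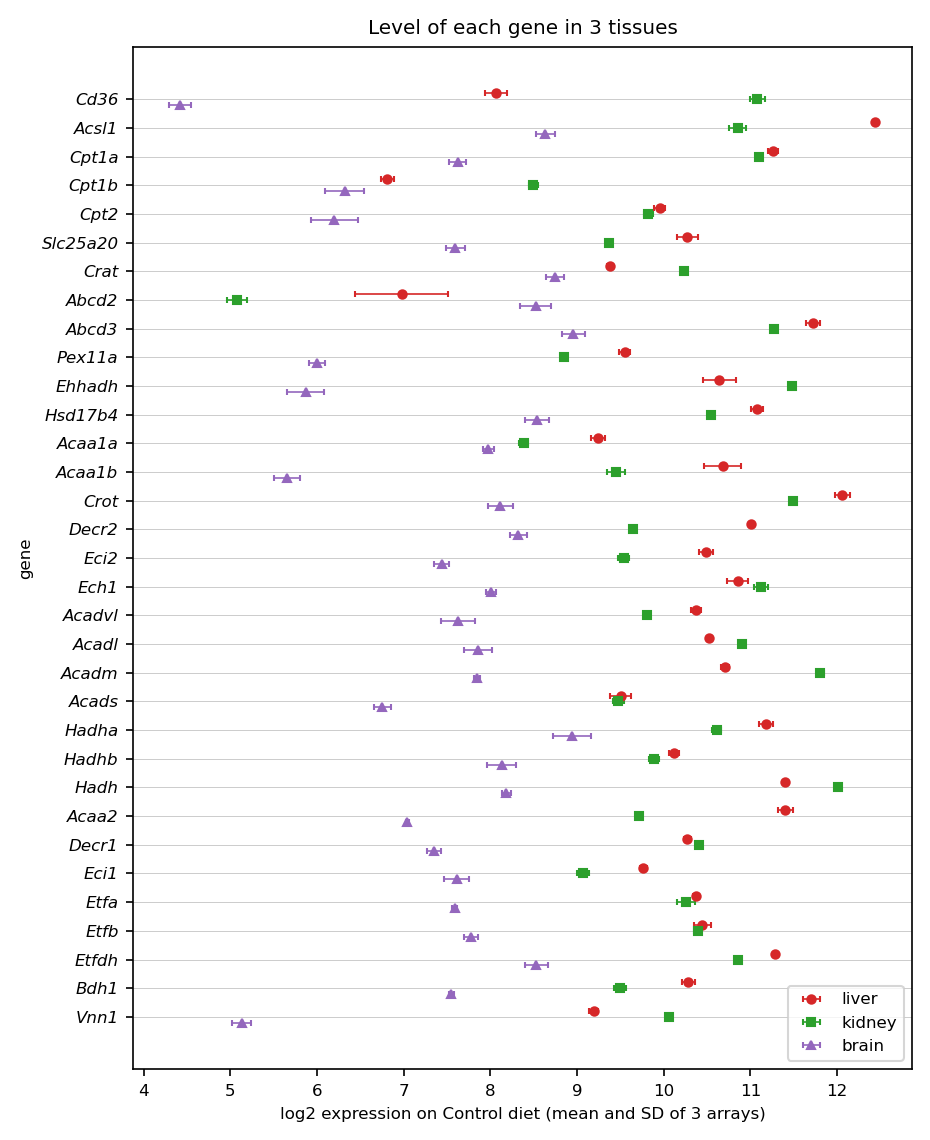
Log2 expression of each of the 33 genes (vertical axis, ordered by role) on the Control diet in liver, kidney and brain, as the mean and SD of 3 arrays. Brain lies far to the left of liver and kidney for most genes, and Abcd2 is the gene with the highest level in brain; levels of different genes come from different probes and are not comparable.

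Before the diet comparisons, the position of the pools has to be given, because many oxidation genes moved together from array to array within a group. The mean over the 33 genes was 10.27, 10.28 and 10.29 on the liver Control arrays, 10.17, 10.07 and 10.21 on HCD, 10.32, 10.12 and 10.45 with Gl-1, 10.27, 10.14 and 10.27 with Gl-2 and 10.38, 10.28 and 10.46 with simvastatin, in the order of pools A, B and C. Pool B was the lowest of the 3 arrays in 25, 26, 24 and 28 of the 33 genes in the liver on HCD alone, with Gl-1, with Gl-2 and with simvastatin, and in 11 on Control. Pool C, a mixture of both by the methods, was above pools A and B in 27 genes of liver HCD+Gl-1 and 30 of kidney HCD+Gl-1. Over all genes pool C lay between A and B in 20.4% to 35.3% of genes, depending on the group. Its part in the results was not tested beyond leaving arrays out.

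**Figure D2:**
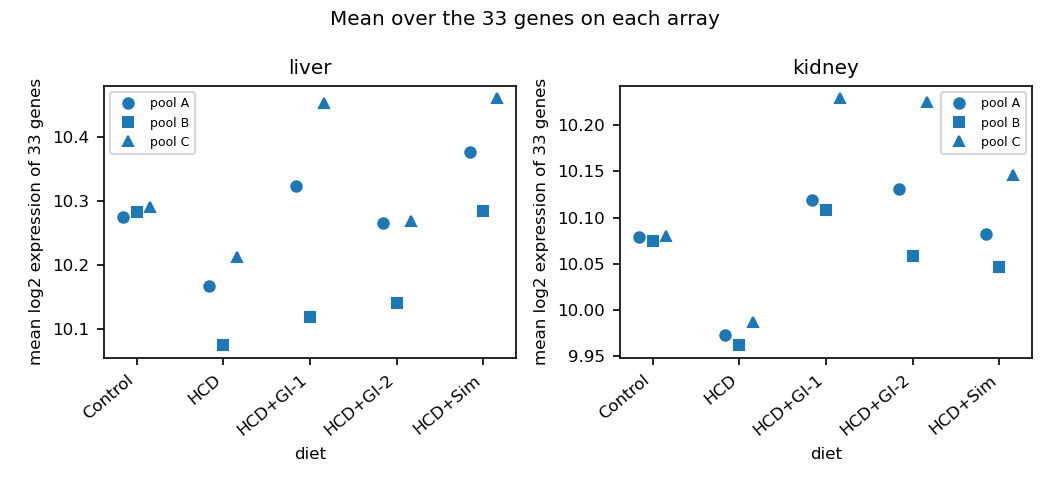
Mean log2 expression of the 33 genes on each liver and kidney array (vertical axis) by diet, with pools A, B and C as circle, square and triangle. All HCD arrays lie below all Control arrays in both tissues, and in liver the HCD+Gl-1 arrays spread the most, from 10.12 in pool B to 10.45 in pool C.

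The HCD lowered a part of this group in liver, and Cd36 rose. Against Control, 5 of the 33 genes fell and 1 rose at an adjusted p of at most 0.05 with no fold threshold, where 0.765% of all genes fell and 0.575% rose. Only Abcd2 was DE by both thresholds, where 0.245% of all genes were DE. In 16 of the 33 genes all HCD arrays lay below all Control arrays, against 8.77% of all genes. The median difference was -0.16 over the 33 genes and -0.01 over all genes. In whole tissue, a lower level cannot be told apart from fewer cells that express the gene.

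Abcd2 read 7.05, 7.47 and 6.41 on the Control arrays and 6.00, 5.86 and 6.01 on HCD. The groups did not overlap, but the Control pools spread over more than the HCD pools did. The HCD values lay below the array medians of 6.76 to 6.92. They were within the 5.75 to 6.06 spanned by the mean of the 8 kidney markers on liver arrays. How far they stood above background was not tested. The Abcd2 difference was -1.02 ± 0.17 (SE, adjusted p = 0.000245), and it was -0.77 without Control pool B and -1.31 without Control pool C. Crot, the peroxisomal carnitine octanoyltransferase, fell by 0.50 ± 0.10 on the log2 scale (SE, adjusted p = 0.00548), from 12.13, 12.09 and 11.96 to 11.54, 11.47 and 11.68. Crat, the carnitine acetyltransferase, read 9.35, 9.38 and 9.40 on Control and 8.97, 8.78 and 9.12 on HCD, a difference of -0.42 ± 0.11 (SE, adjusted p = 0.0327). Cpt1a, the gate of mitochondrial entry, read 11.23, 11.33 and 11.23 on Control and 10.89, 10.87 and 10.90 on HCD, a difference of -0.38 ± 0.07 (SE, adjusted p = 0.00291). For all 3 of these carnitine acyltransferases every HCD array lay below every Control array. Eci2, an enoyl-CoA isomerase of peroxisomes and mitochondria, read 10.40, 10.49 and 10.56 and 10.08, 10.13 and 10.17, a difference of -0.35 ± 0.09 (SE, adjusted p = 0.0292), and it did not pass on pools A and B alone.

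Cd36 moved the other way. It read 8.21, 8.00 and 7.97 on the Control arrays and 8.83, 8.54 and 8.74 on HCD, with no overlap, and the difference was 0.64 ± 0.10 (SE, adjusted p = 0.000232). The mean of 8 macrophage markers, cells that also carry Cd36, was 8.20 to 8.46 on Control and 8.04 to 8.08 on HCD, lower in all 8 markers and past the test in 1. The mean of 9 adipose markers was 6.56 to 6.75 on Control and 6.51 to 6.60 on HCD, with 0 past the test. The mean of 12 skeletal muscle markers was 6.91 to 7.07 on Control and 6.45 to 6.67 on HCD, with all 12 lower and 2 past the test, and its part in the lower members was not tested.

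The enzymes of the mitochondrial spiral gave no call on the HCD. None of the 10 mitochondrial oxidation genes and none of the 3 electron transfer genes passed the test in liver, and their differences ranged from -0.20 to 0.21. All 5 carnitine shuttle genes had a lower mean on the HCD, from -0.42 for Crat to -0.19 for Cpt2, and 2 of them passed. Of the 11 peroxisomal genes 7 had a lower mean and 3 passed, while Acaa1b had a difference of 0.28 ± 0.11 (SE, adjusted p = 0.316). Acsl1 just missed the test at -0.37 ± 0.10 (SE, adjusted p = 0.0549), with no overlap between its groups.

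**Figure D3:**
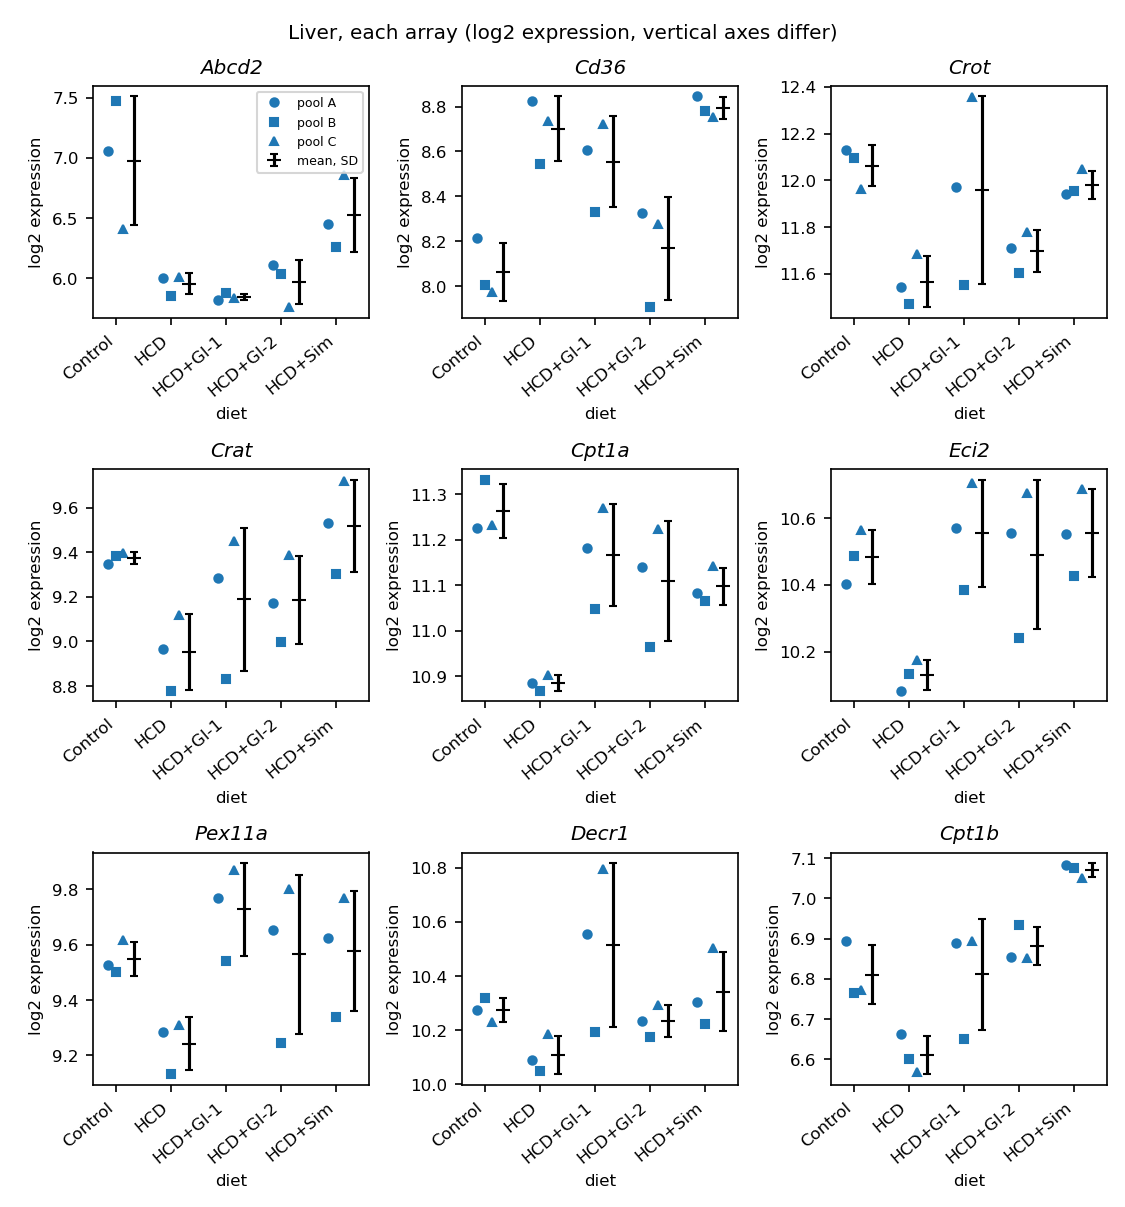
Log2 expression of 9 genes on each liver array by diet, with pools A, B and C as circle, square and triangle and the mean and SD of the 3 arrays beside them. Abcd2, Crot, Crat, Cpt1a and Eci2 lie lower on HCD than on Control and Cd36 lies higher, and Cd36 on HCD+Gl-2 lies below HCD, between 7.91 and 8.32.

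All treatment comparisons share the same 3 HCD arrays, and HCD against Control uses them as well, so their results are not independent of each other. In liver, HCD+Gl-1 against HCD raised 6 of the 33 genes and lowered none at an adjusted p of at most 0.05, where 1.48% of all genes rose and 0.996% fell. None was DE, where 0.163% of all genes were. The 6 were Pex11a, Eci2, Decr1, Crot, Acsl1 and Cpt1a, which span activation, the shuttle, the peroxisome and the mitochondrion. The median difference was 0.19 over the 33 genes and -0.01 over all genes. In 5 of the 33 genes all HCD+Gl-1 arrays lay above all HCD arrays, against 5.88% of all genes.

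Pex11a, which drives peroxisome division, read 9.29, 9.13 and 9.31 on HCD and 9.77, 9.54 and 9.87 on HCD+Gl-1, a difference of 0.49 ± 0.12 (SE, adjusted p = 0.0231). Eci2 read 10.57, 10.39 and 10.71 on HCD+Gl-1, all above HCD, with a difference of 0.42 ± 0.09 (SE, adjusted p = 0.00527). Decr1, the mitochondrial dienoyl-CoA reductase, read 10.09, 10.05 and 10.19 on HCD and 10.55, 10.20 and 10.80 on HCD+Gl-1. Its pool B was only just above the highest HCD array, and the difference was 0.41 ± 0.09 (SE, adjusted p = 0.0127). Crot read 11.97, 11.55 and 12.36, so pool B lay within the HCD range, with a difference of 0.39 ± 0.10 (SE, adjusted p = 0.0327). The SD of Crot was 0.40 on HCD+Gl-1 and 0.11 on HCD, and its SE comes from the spread shared over all arrays. Acsl1 read 12.08, 12.12 and 12.02 on HCD and 12.52, 12.20 and 12.64 on HCD+Gl-1, a difference of 0.38 ± 0.10 (SE, adjusted p = 0.0327). Cpt1a read 11.18, 11.05 and 11.27, a difference of 0.28 ± 0.07 (SE, adjusted p = 0.0347). Pool B of HCD+Gl-1 was the lowest of the 3 arrays in all 6 genes and pool C the highest, and on pools A and B alone none of the 6 passed. Without pool C of HCD+Gl-1 the median over the 33 genes was 0.06 and none passed. Without pool B the median was 0.28, and 17 genes passed as higher and Acads as lower, where 9.48% of all genes passed, with Vnn1 DE at 0.76. The mean of the 8 macrophage markers was 8.28, 8.28 and 8.07 on HCD+Gl-1 against 8.04 to 8.08 on HCD, with 8 of 8 higher and 1 past the test. The part of these markers in the 6 calls was not tested.

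HCD+Gl-2 against HCD raised Eci2 and lowered Cd36 in liver, and no other gene of the 33 passed. Of all genes 0.824% rose and 0.874% fell, and none of the 33 was DE where 0.303% of all genes were. Cd36 read 8.32, 7.91 and 8.27 on HCD+Gl-2, with every array below the HCD arrays, and the difference was -0.53 ± 0.10 (SE, adjusted p = 0.00217). Eci2 read 10.55, 10.24 and 10.68, with a difference of 0.36 ± 0.09 (SE, adjusted p = 0.0206), and it did not pass on pools A and B alone. The median difference was 0.05, beside 0.01 over all genes, and 8 genes were higher with no overlap, against 7.27% of all genes.

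HCD+Sim against HCD raised Crat, Cpt1b, Eci2 and Crot in liver and lowered none, where 0.833% of all genes rose and 0.263% fell. None was DE, where 0.258% of all genes were. In 30 of the 33 genes the mean was higher with simvastatin, beside 62.2% of all genes. In 19 the groups did not overlap, against 9.26% of all genes. The median difference was 0.19, beside 0.03 over all genes. Crat read 9.53, 9.31 and 9.72 on HCD+Sim, a difference of 0.56 ± 0.11 (SE, adjusted p = 0.00258). Crot read 11.94, 11.95 and 12.05, a difference of 0.42 ± 0.10 (SE, adjusted p = 0.0319). Eci2 read 10.55, 10.43 and 10.69, a difference of 0.43 ± 0.09 (SE, adjusted p = 0.00751) that did not pass on pools A and B alone. For all 3 genes, every simvastatin array lay above every HCD array.

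Cpt1b, the isoform named for muscle, read 6.66, 6.60 and 6.57 on HCD and 7.08, 7.08 and 7.05 on HCD+Sim, a difference of 0.46 ± 0.09 (SE, adjusted p = 0.00328). The mean of the skeletal muscle markers was 7.42, 7.78 and 6.59 on the same simvastatin arrays and 6.45 to 6.67 on HCD. Of those 12 markers 8 passed the test as higher, as did all 8 exocrine pancreas markers. The part of either list in the Cpt1b difference was not tested. The 8 macrophage markers had means of 8.35, 8.45 and 8.13 on HCD+Sim, with 7 of 8 higher than on HCD and 1 past the test. On pool C alone against HCD, the difference of Cpt1b was 0.44 with an adjusted p of 0.0528, that of Crot 0.48 with 0.0683, that of Eci2 0.56 with 0.013 and that of Crat 0.77 with 0.00314. Abcd2, at 0.57 ± 0.17 (SE, adjusted p = 0.0927) with all 3 arrays, was 0.90 with an adjusted p of 0.0268 on pool C alone. Pool C was the highest of the 3 arrays in 25 of the 33 genes on HCD, and in 25 on HCD+Sim. Pool and treatment therefore cannot be told apart in these differences. On pool C alone Ehhadh and Ech1 had differences of 0.56 and 0.41. There the median over the 33 genes was 0.26 beside 0.10 over all genes, the mean was higher in 30 of the 33 genes beside 72.0% of all genes, and 28 members lay above every HCD array, against 50.1% of all genes.

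**Figure D4:**
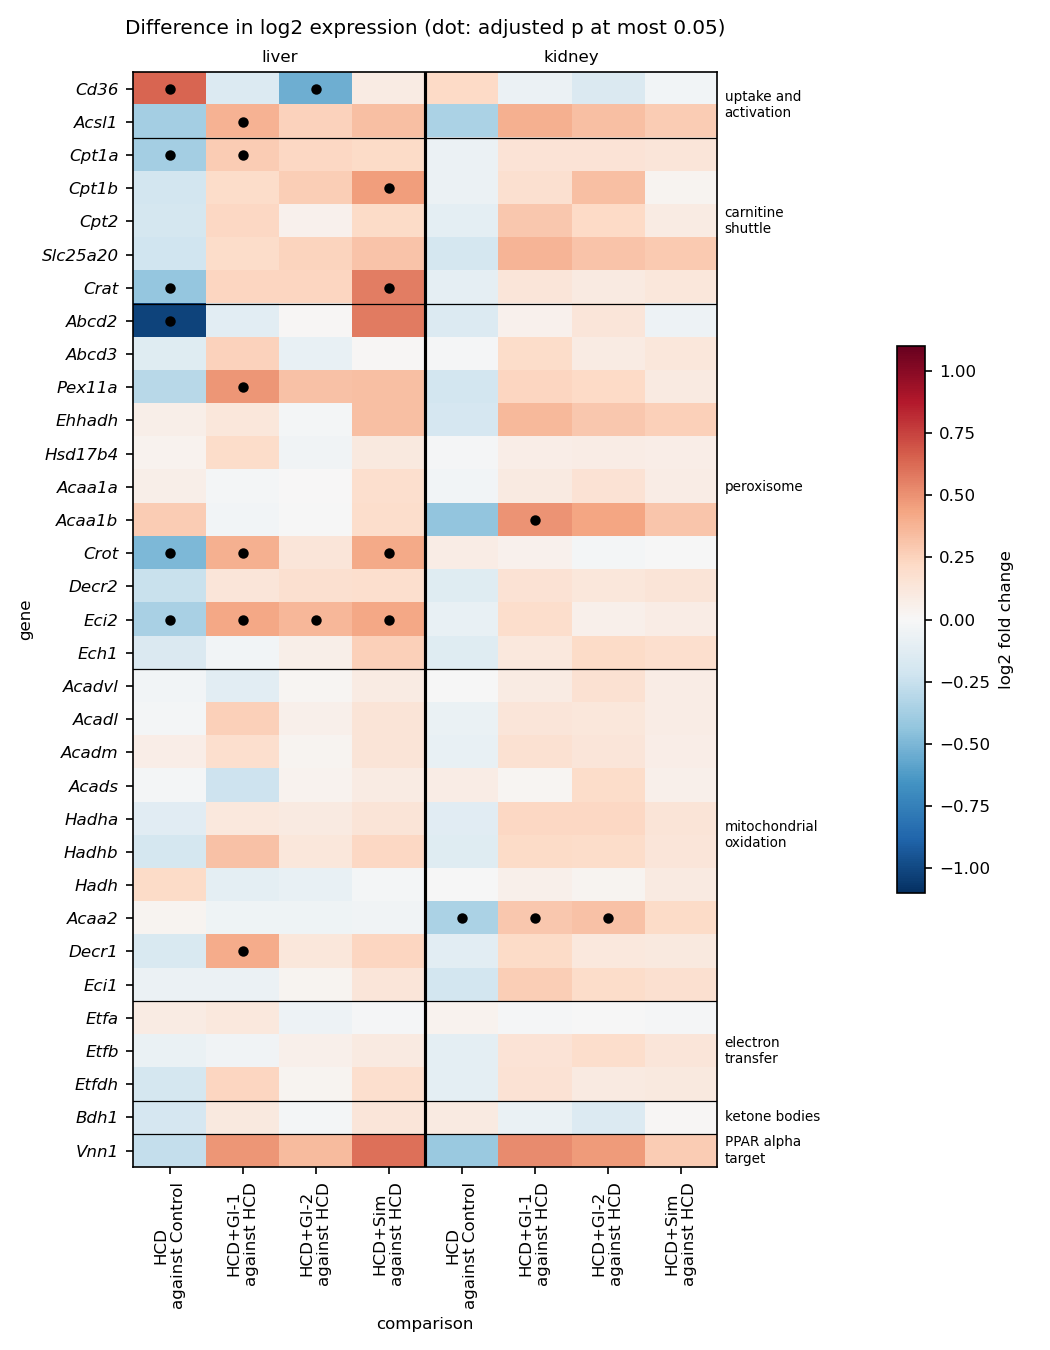
Log2 difference of each of the 33 genes (rows, grouped by role) in the liver and kidney comparisons (columns), with red for higher and blue for lower in the first-named group and a dot where the adjusted p was at most 0.05. Most cells are blue in the HCD against Control columns and red in the treatment columns, which share the HCD arrays, and Cd36 in liver runs against this with 0.64 on HCD and -0.53 with Gl-2.

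The liver treatments were also set against each other, which leaves the HCD arrays out. HCD+Gl-2 against HCD+Gl-1 lowered Cd36 and Abcd3 among the 33 genes and raised none, where 3.94% of all genes passed. The Cd36 difference was -0.38 ± 0.10 (SE, adjusted p = 0.0292). Abcd3, a peroxisomal importer of branched and dicarboxylic acyl groups, read 11.87, 11.61 and 12.07 on HCD+Gl-1 and 11.53, 11.59 and 11.43 on HCD+Gl-2, a difference of -0.34 ± 0.08 (SE, adjusted p = 0.00883). Neither passed on pools A and B alone. With the pool letter as a block in the fit of all groups, Decr1 passed as well, at -0.28 with an adjusted p of 0.0484. That block does not pair the arrays of this comparison alone. In most other diet comparisons the arrays gave no sign of a shared pool letter, so this call rests on a block not shown to hold there. Without pool B of HCD+Gl-1, 10 genes passed as lower and Acads as higher, where 13.3% of all genes passed.

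HCD+Gl-1 against HCD+Sim lowered Abcd2, Acads and Ech1, where 4.09% of all genes passed. Abcd2 read 5.82, 5.87 and 5.84 on HCD+Gl-1 and 6.45, 6.26 and 6.86 on HCD+Sim, a difference of -0.68 ± 0.17 (SE, adjusted p = 0.0174). Acads, the short-chain acyl-CoA dehydrogenase, read 9.28, 9.41 and 9.09 and 9.58, 9.54 and 9.60, a difference of -0.32 ± 0.08 (SE, adjusted p = 0.0278). Ech1, a dienoyl-CoA isomerase, read 10.65, 10.66 and 10.69 and 10.89, 10.88 and 11.11, a difference of -0.29 ± 0.08 (SE, adjusted p = 0.0352). All 3 genes were lower with Gl-1 with no overlap, and of them Acads and Ech1 did not pass on pools A and B alone. On simvastatin pool C alone the differences were -1.01 for Abcd2, -0.53 for Crat, -0.44 for Ech1 and -0.34 for Acads. Without pool B of HCD+Gl-1, Acadvl joined the lower genes and Abcd3, Hsd17b4 and Decr1 passed as higher, where 12.5% of all genes passed. HCD+Gl-2 against HCD+Sim lowered Cd36 alone, at -0.63 ± 0.10 (SE, adjusted p = 0.000507), where 1.31% of all genes passed. On simvastatin pool C alone Abcd2 (-0.89), Ehhadh (-0.58) and Crat (-0.53) passed as lower beside Cd36 (-0.58), where 1.62% of all genes passed. In this comparison 32 of the 33 means were lower with Gl-2, with a median of -0.11 beside -0.03 over all genes.

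In kidney most of the 33 genes lay lower on the HCD by small amounts. HCD against Control lowered only Acaa2 at an adjusted p of at most 0.05 and raised none, where 0.0362% of all genes fell and 0.0951% rose. None was DE, where 0.0408% of all genes were. Yet 28 of the 33 means were lower on the HCD, and in 19 all HCD arrays lay below all Control arrays, against 7.67% of all genes. The median difference was -0.10, beside -0.01 over all genes.

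With each treatment most of the kidney genes lay above the HCD arrays. HCD+Gl-1 against HCD raised Acaa1b and Acaa2, where 0.0634% of all genes rose and 0.204% fell, and none was DE, where 0.131% of all genes were. In 26 of the 33 genes the HCD+Gl-1 arrays all lay above the HCD arrays, against 8.14% of all genes. HCD+Gl-2 against HCD raised Acaa2, where 0.539% of all genes rose and 0.457% fell, and none was DE, where 0.335% were. There, 23 genes were higher with no overlap, against 11.4% of all genes. HCD+Sim against HCD gave no gene of the 33 past the test, where 0.0634% of all genes rose, 0.159% fell and 0.140% were DE. Still, 18 genes were higher with no overlap, against 10.0% of all genes. The median differences were 0.16, 0.16 and 0.10 for Gl-1, Gl-2 and simvastatin, beside 0.01, 0.01 and 0.00 over all genes, and on pools A and B alone they were 0.14, 0.14 and 0.08. The mean of the 9 adipose markers in kidney was 6.30 to 6.42 on Control, 6.28 to 6.32 on HCD, 6.33 to 6.42 with Gl-1, 6.36 to 6.45 with Gl-2 and 6.27 to 6.35 with simvastatin. Its median difference was -0.10 on the HCD, with 3 of 9 higher, and 0.06, 0.15 and 0.00 with the treatments, with 8, 8 and 5 of 9 higher, and 0 markers passed the test. The part of these markers in the kidney shift was not tested.

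Acaa2, which carries out the thiolytic step of the mitochondrial spiral, read 9.71, 9.75 and 9.69 on Control, 9.45, 9.35 and 9.31 on HCD, 9.61, 9.65 and 9.74 on HCD+Gl-1, 9.62, 9.63 and 9.83 on HCD+Gl-2 and 9.60, 9.52 and 9.63 on HCD+Sim. All HCD arrays lay below all 12 others. The differences were -0.35 ± 0.07 (SE, adjusted p = 0.0158) on the HCD, 0.30 ± 0.07 (SE, adjusted p = 0.0405) with Gl-1 and 0.33 ± 0.07 (SE, adjusted p = 0.00621) with Gl-2. None of the 3 calls of Acaa2 held on pools A and B alone.

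Acaa1b read 9.33, 9.53 and 9.48 on Control, 9.11, 8.97 and 8.95 on HCD, 9.42, 9.47 and 9.62 on HCD+Gl-1, 9.44, 9.24 and 9.64 on HCD+Gl-2 and 9.31, 9.23 and 9.40 on HCD+Sim. Here too the HCD arrays were below all others. The difference was 0.50 ± 0.11 (SE, adjusted p = 0.0397) with Gl-1, 0.43 ± 0.11 (SE, adjusted p = 0.0518) with Gl-2 and -0.44 ± 0.11 (SE, adjusted p = 0.134) for the HCD. Its relative Acaa1a had a difference of 0.10 ± 0.08 (SE, adjusted p = 1) with Gl-1, and its groups overlapped in every kidney comparison with HCD. The difference between the 2 genes was not tested.

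Vnn1 and Acsl1 were chosen after their values were seen, as genes with kidney differences of about the size of Acaa1b that did not pass. Vnn1 read 10.05, 10.10 and 10.04 on Control, 9.56, 9.70 and 9.69 on HCD and 10.13, 10.04 and 10.33 on HCD+Gl-1, with differences of -0.41 ± 0.18 (SE, adjusted p = 1) and 0.52 ± 0.18 (SE, adjusted p = 0.616). Acsl1 read 10.83, 10.97 and 10.77, 10.48, 10.49 and 10.55 and 10.90, 10.84 and 10.95, with differences of -0.35 ± 0.10 (SE, adjusted p = 0.298) and 0.39 ± 0.10 (SE, adjusted p = 0.123). By role, 2 of the 3 electron transfer genes, all 5 carnitine shuttle genes, all 11 peroxisomal genes and all 10 mitochondrial genes had a higher mean with Gl-1 than on the HCD in kidney, the highest being Acaa1b. Bdh1, Cd36 and Etfa went the other way, at -0.08 ± 0.07 (SE), -0.06 ± 0.10 (SE) and -0.02 ± 0.08 (SE), and none of them passed.

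**Figure D5:**
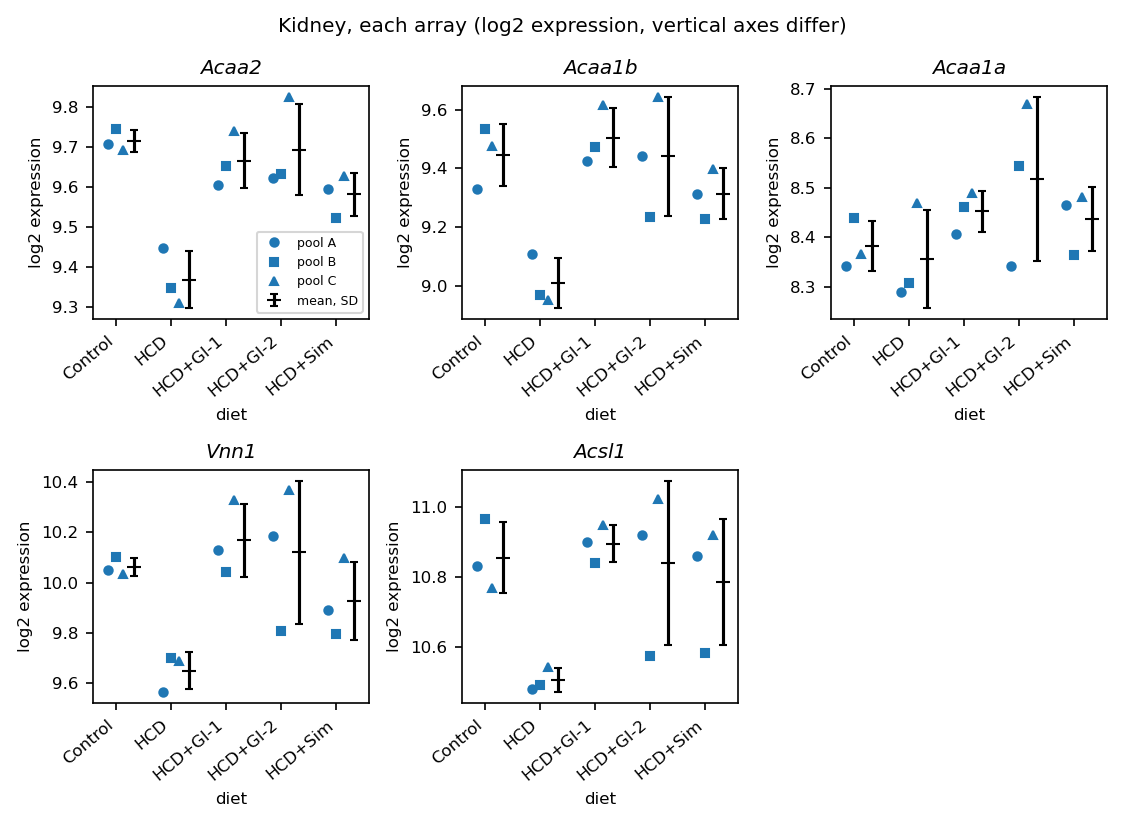
Log2 expression of 5 genes of the group on each kidney array by diet, with pools A, B and C as circle, square and triangle and the mean and SD beside them. The HCD arrays of Acaa2, Acaa1b, Vnn1 and Acsl1 lie below all other arrays, while those of Acaa1a overlap the other groups.

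The response of liver was set against that of kidney by a contrast of both differences in the same fit. For HCD against Control only Acaa1b differed between the tissues at the DE thresholds, where 0.149% of all genes did. Its log2 difference was 0.28 in liver and -0.44 in kidney, and liver minus kidney was 0.72 ± 0.16 (SE, adjusted p = 0.0334). For the 3 treatments none of the 33 genes differed, where 0.222%, 0.326% and 0.254% of all genes did for Gl-1, Gl-2 and simvastatin. Abcd2, DE in liver alone for HCD against Control, had -0.87 ± 0.24 (SE, adjusted p = 0.119) for liver minus kidney, so its responses in the tissues were not shown to differ.

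Brain gave no call among the 33 genes in any of the 4 comparisons by limma. By the adjusted p alone 0.0543% of all genes passed for HCD against Control, 0.0181% for Gl-1, 0.0362% for Gl-2 and 0.0181% for simvastatin, each against HCD. The largest brain difference was that of Acaa1b on the HCD, at 0.51 ± 0.11 (SE, adjusted p = 0.0754), and its treatment differences were -0.35 ± 0.11 (SE), -0.34 ± 0.11 (SE) and -0.27 ± 0.11 (SE). It read 5.75, 5.47 and 5.72 on Control and 6.33, 6.06 and 6.09 on HCD, all below the array medians of 6.76 to 6.92. Pool C of the brain Control group correlated with pools A and B at 0.991 and 0.985, which correlated with each other at 0.996. Without pool C, Acaa1b passed as higher at 0.55 and Cpt1b and Eci1 as lower at -0.32 and -0.38 for HCD against Control, where 4.03% of all genes passed.

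Of 57 other genes of the pathway, 53 were in the table. Judged by the adjusted p without a fold threshold, the HCD raised Bdh2 and lowered Slc16a1 and Slc16a6 in liver, where 1.34% of all genes passed. Gl-1 lowered Acacb alone, where 2.48% of all genes passed. Gl-2 raised Slc27a1 and lowered Acacb and Acsl5, where 1.7% of all genes passed. Simvastatin raised Oxct1 and Slc27a1 and lowered Acacb and Lpin1, where 1.1% of all genes passed. Oxct1 encodes the enzyme that activates acetoacetate for use outside the liver, Slc27a1 a fatty acid transport protein and Acsl5 a long-chain acyl-CoA synthetase. Bdh2, Slc16a6, Slc27a1, Acsl5 and Oxct1 were not DE and are named after their values were seen. Slc16a6, a transporter of the monocarboxylate family, had a difference of -0.55 ± 0.08 (SE, adjusted p = 4.74e-05). In kidney 0 of the 53 genes passed in any of the 4 comparisons by limma. Of all genes 0.131% passed there for HCD against Control, 0.267% for Gl-1, 0.996% for Gl-2 and 0.222% for simvastatin.

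In liver, Slc16a1, the monocarboxylate transporter that carries ketone bodies and lactate, was DE lower on the HCD, where 0.245% of all genes were DE. It read 8.70, 8.64 and 8.77 on Control and 7.99, 7.73 and 8.16 on HCD, with no overlap, and the difference was -0.74 ± 0.11 (SE, adjusted p = 8.15e-05). Simvastatin lowered 2 genes at the DE thresholds, where 0.258% of all genes were DE. Acacb, whose product makes the malonyl-CoA that inhibits CPT1, read 8.84, 9.01 and 8.55 on HCD and 8.09, 8.23 and 7.65 on HCD+Sim, a difference of -0.81 ± 0.13 (SE, adjusted p = 0.000296). Gl-1 and Gl-2 also lowered Acacb, by adjusted p alone, at -0.46 ± 0.13 (SE, adjusted p = 0.0412) and -0.58 ± 0.13 (SE, adjusted p = 0.00806). On simvastatin pool C alone the Acacb difference from HCD was -1.15 with an adjusted p of 0.000106. Lpin1, a phosphatidate phosphatase and transcriptional coactivator, read 10.54, 10.35 and 10.60 on HCD and 9.60, 9.79 and 9.48 on HCD+Sim, a difference of -0.87 ± 0.18 (SE, adjusted p = 0.00775), and on pool C alone it was -1.02 with an adjusted p of 0.0288. The Lpin1 level ran from 9.62 to 10.97 within HCD+Gl-2 (SD 0.70) and from 9.48 to 9.79 within HCD+Sim (SD 0.16), so these groups overlapped. By the spread shared over all arrays, Lpin1 was DE higher with Gl-2 than with simvastatin, at 0.78 ± 0.18 (SE, adjusted p = 0.0184). That SE does not reflect the wide spread within HCD+Gl-2. On simvastatin pool C alone the difference was 0.93. Of the other 2 genes that simvastatin raised, Slc27a1 passed on pool C alone, at 0.49, and Oxct1 had 0.20 with an adjusted p of 0.311. For Acacb liver minus kidney was DE for Gl-2, at -0.75 ± 0.18 (SE, adjusted p = 0.0359), and for simvastatin, at -0.83 ± 0.18 (SE, adjusted p = 0.0212). Ppara itself, the receptor gene, was chosen for its role after values were seen, and it did not pass in any liver or kidney diet comparison, with differences such as 0.21 ± 0.12 (SE, adjusted p = 0.391) for liver HCD+Gl-1 and 0.32 ± 0.12 (SE, adjusted p = 0.27) for kidney HCD+Gl-2.

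The calls depend on how the spread between arrays is estimated. The fit above shares it over all 45 arrays. Fitted on the 15 liver arrays alone, 0 of the 33 genes passed in any liver comparison, where 0.118% of all genes passed for Gl-1 in place of 2.48%. On the 15 kidney arrays alone Acaa1b and Slc25a20, the carnitine-acylcarnitine carrier, passed as higher for Gl-1. There 0.312% of all genes passed in place of 0.267%. For Gl-2 Cpt1b, Slc25a20, Acaa1b and Acaa2 passed as higher on the kidney arrays, where 1.93% of all genes passed in place of 0.996%. The log2 differences are the same in both fits, since only the error changes. Among the calls at an adjusted p of at most 0.05, those of Abcd2, Cd36, Cpt1a and Crot on the HCD in liver, of Cd36 with Gl-2 against HCD and against simvastatin, and of Cpt1b and Crat with simvastatin passed with any 1 array of the compared groups left out. Every other call among the 33 genes in a diet comparison or in the difference between liver and kidney responses was lost when at least 1 array was left out, and the calls between tissues on the Control diet were not followed one by one. The call of Acaa1b with Gl-1 in kidney was lost without any of its 6 arrays.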

How the data were processed

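Liver, kidney and brain RNA of 5 diet groups was measured on 45 arrays. According to the study's methods, the authors applied RMA background correction and quantile normalization (oligo), reduced batch effects by ComBat and, where several probe sets shared a gene, retained that of the highest interquartile range. The deposited values are on the log2 scale. Which batches were adjusted is not given in the sources used here. Samples were grouped by their titles.

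One linear model with a mean for each of the 15 groups was fitted with limma 3.58.1 in R 4.3.3 (residual degrees of freedom 30, prior degrees of freedom 7.34), with the Benjamini-Hochberg adjustment over 22080 genes in each of 22 contrasts. DE meant an absolute log2 difference over 0.7 at an adjusted p no higher than 0.05. With 3 arrays per group, an exact permutation test of 1 gene cannot give a two-sided p under 0.1. The number of arrays limits the precision. The code was tested on simulated data.

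The 33 members and all lists were chosen with earlier results of these data known. Every member may be named. Array values are given for members DE in a liver or kidney diet comparison and for up to 5 members with the largest change past the adjusted p in each liver comparison. Array values outside this rule (Cpt1a with Gl-1 in liver, Abcd2 across tissues, and the kidney and brain genes) were chosen after their values were seen. Other pathway genes are named where DE, and results of 1 further gene are not reported here. Members DE between tissues alone are given by differences and in a plot.

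Array deviations from group means were correlated between groups for equal pool letters. Every pair exceeded 0.1 for liver HCD+Gl-2 against HCD+Gl-1 (0.14, 0.27 and 0.19) and against HCD+Sim (0.20, 0.11 and 0.18), and in no other diet comparison. The letters were therefore taken to pair the arrays there, from the data and not from the labels. The block, however, was entered in the fit of all groups, so it did not test that pairing alone.

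Alternatives were fits on a tissue's arrays or on the compared groups, pools A and B, the pool letter as a block, leaving out the lowest 25% of genes by mean, quantile normalization within a tissue, trend and robust moderation, the adjusted p alone, and each array left out. The simvastatin liver arrays of pools A and B were left out as an alternative chosen after seeing the data. Promoters came from RefSeq (GRCm38.p6). Plots were made in Python with matplotlib.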

Additional observations from a re-analysis of the deposited data

Results flagged for a closer look

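A response that differed between liver and kidney at the DE thresholds drew attention, tested as liver minus kidney in the same fit. Acaa1b differed for HCD against Control, at 0.72 on the log2 scale, with 0.28 in liver and -0.44 in kidney. The call was lost without any one of 9 of its 12 arrays, with values between 0.60 and 0.81.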

How the results depend on the processing

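No log2 difference of the 29 calls of single members followed here changed sign under any alternative. With the pool letter as a replicate block 0 of the 29 calls were lost, and Decr1 was gained for HCD+Gl-2 against HCD+Gl-1. Members past the adjusted p also went from 5 to 6 lower for liver HCD against Control and from 4 to 5 higher for liver simvastatin. They went from 1 to 2 higher for kidney Gl-2 and from 3 to 4 lower for liver HCD+Gl-1 against HCD+Sim. In brain 1 member passed as higher for HCD against Control, with the block and also with trend and robust moderation. The number of DE members with the block was as in the fit without it in all 22 comparisons. It was 1 for liver HCD against Control, 16, 31 and 32 for the tissue comparisons and 0 for each treatment. Calls at the adjusted p were lost in 26 of 28 on the arrays of the tissue, 28 of 29 on the compared groups, 18 of 29 on pools A and B, 2 without the lowest 25% of genes (Acaa1b and Acaa2 in kidney with Gl-1), 1 with quantile normalization within the tissue (Acaa2, the same comparison) and 0 with trend and robust moderation. The cause of these losses was not tested. Leaving out single arrays ended the call in 84 of 180 refits.

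By the adjusted p alone, 6 members passed in liver for HCD against Control in place of 1 DE, 6 for Gl-1, 2 for Gl-2 and 4 for simvastatin in place of 0, and 1, 2 and 1 in kidney for HCD against Control, Gl-1 and Gl-2. It gave 2 for HCD+Gl-2 against HCD+Gl-1, 3 for HCD+Gl-1 against HCD+Sim, 1 for HCD+Gl-2 against HCD+Sim and 26 for liver against kidney. For liver HCD against Control, DE members numbered 0 in the fits on the liver arrays and on the compared groups, and 1 to 2 with an array left out, as Cd36 joined Abcd2 without Control pool A or HCD pool B. With an array left out, Gl-1 gave 0 to 1 (Vnn1 without pool B), HCD+Gl-1 against HCD+Sim 0 to 1 (Abcd2 without simvastatin pool A or B) and HCD+Gl-2 against HCD+Sim 0 to 1 (Cd36 without HCD+Gl-2 pool A). Without pools A and B of simvastatin, 2 members were DE against HCD (Crat and Abcd2), 1 for HCD+Gl-1 and 1 for HCD+Gl-2 against simvastatin (Abcd2). The difference of responses on the HCD gave 0 to 2 with an array left out and 0 on the compared groups. On pools A and B it was 1, but Abcd2 at -1.09 in place of Acaa1b.

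The median over the 33 genes kept its sign in liver and kidney under every alternative, and moved most for liver Gl-1, from 0.06 to 0.28 with an array left out. In brain it turned from -0.02 to 0.02 for HCD against Control with an array left out. Signal over background was not given per probe, so no member was judged absent in a tissue.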
